A study of Mus musculus with 8 samples.

Results

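Retinoid metabolism and signalling was followed through 9 genes that carry vitamin A from its uptake to the receptor of its active form. The members were chosen by symbol, without the use of their values but with earlier results of these data known. They are *Rbp4*, *Stra6*, *Aldh1a1*, *Aldh1a2*, *Aldh1a3*, *Crabp1*, *Crabp2*, *Cyp26b1* and *Rarb*, and all 9 are among the 41325 genes listed for each library. Expression is given as RPKM, the reads of a gene scaled to its exon length and to the mapped reads of the library. A gene passed the filter when its RPKM was over 1 in at least 1 library, which 11513 genes did. Of the members, 3 passed (*Aldh1a1*, *Crabp2* and *Cyp26b1*) and 6 did not.

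The cells were C3H10T1/2 cells, a mouse mesenchymal stem cell line that can be induced to form adipocytes. They carried a control shRNA (shControl) or an shRNA against *Kdm4d* (shKDM4D), *Nfib* (shNFIB) or *Kmt2a*, the gene of MLL1 (shMLL1). KDM4D is a histone demethylase, NFIB a transcription factor and MLL1 a histone methyltransferase. Each line was sequenced at day 0 and at day 5 of adipogenic differentiation, which gave 8 libraries and 1 library per condition. The knockdown cells came from transfection with the pLKO.1 vector carrying the shRNA, followed by puromycin, and resistant clones were picked and screened. Which clone of each target was sequenced, and how the shControl cells were made, is not given in the sources used here, so a property of a clone and the effect of its shRNA cannot be told apart. The medium of the induced cells held 10% FBS with insulin (10 µg/ml), dexamethasone (1 µM) and isobutylmethylxanthine (0.5 mM) until day 2, followed by insulin for 2 days.

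Vitamin A circulates as retinol bound to the carrier protein RBP4 and can enter cells through the receptor STRA6. Inside the cell retinol is oxidised to retinaldehyde, and the ALDH1A enzymes oxidise retinaldehyde to retinoic acid. CRABP proteins bind retinoic acid in the cytoplasm, CYP26 enzymes break it down, and the nuclear receptors RARα, RARβ and RARγ, paired with RXR, mediate its effect on transcription. In preadipocytes retinoic acid is known to inhibit differentiation, whereas retinaldehyde and its enzymes have been studied in mature fat.

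The promoters below are shown because *Rarb* is the classic direct target of retinoic acid among the members, and because *Aldh1a1* lies next to *Aldh1a7*, a closely similar gene whose transcript moved with it in several comparisons. The sequences are from RefSeq on GRCm38.p6, and a promoter entry was found for 7 of the 9 members. *Aldh1a3* and *Crabp2* had none. Each line is read 5′ to 3′ on the strand of the gene. In the *Rarb* promoter (chr14:16575477-16575576, minus strand) the capitals mark a match to the DR5 retinoic acid response element, a direct repeat with a spacer of 5 bases, from 53 to 37 bases before the listed start. In the *Aldh1a1* promoter (chr19:20601768-20601967, plus strand, the more downstream of its 2 listed starts) and the *Aldh1a7* promoter (chr19:20727557-20727756, minus strand) the capitals mark runs of at least 12 bases found in both.
Rarb: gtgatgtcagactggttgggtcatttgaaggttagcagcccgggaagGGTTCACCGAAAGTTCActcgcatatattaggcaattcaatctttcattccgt
Aldh1a1: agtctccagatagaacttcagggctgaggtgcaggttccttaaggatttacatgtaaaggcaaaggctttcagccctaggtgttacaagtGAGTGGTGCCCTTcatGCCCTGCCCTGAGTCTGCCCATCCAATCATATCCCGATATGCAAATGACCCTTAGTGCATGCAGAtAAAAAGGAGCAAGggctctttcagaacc
Aldh1a7: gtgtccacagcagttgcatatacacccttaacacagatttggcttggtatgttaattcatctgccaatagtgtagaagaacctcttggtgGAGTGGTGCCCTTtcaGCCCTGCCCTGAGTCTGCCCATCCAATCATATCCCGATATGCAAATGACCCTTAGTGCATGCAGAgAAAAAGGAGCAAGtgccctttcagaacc

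A match to DR5 on either strand was present in 32 of the 32851 listed promoters (0.0974%), from 250 bases before to 50 bases after each start, and *Rarb* was the only member among them. The DR2 element, with a spacer of 2 bases, was matched in 88 promoters (0.268%) and in no member. A match describes the letters of the sequence and is not a measurement of binding. The *Aldh1a1* and *Aldh1a7* promoters shared 3 runs that covered 91 of the 200 bases, and the longest was 65 bases.

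The libraries held between 15800000 and 38200000 mapped reads, as recovered from the RPKM values. Reads of the ribosomal RNA-like genes AY036118 and CT010467.1 made up 7.95 to 10.5% of them at day 0 and 3.07 to 3.62% at day 5, and the part of this in the differences between days was not tested. The targeted transcripts *Nfib* and *Kmt2a* were lower in their own lines at both days, with log2 ratios to shControl cells of -2.10 and -2.33 for *Nfib* and -1.37 and -1.70 for *Kmt2a*. *Kdm4d* was covered by few reads, and its ratio in shKDM4D cells was -1.86 at day 5 (95% interval -3.94 to -0.17) and -0.55 at day 0 (-6.44 to 3.71). The label of the cells was checked on marker genes. The 8 mesenchymal markers summed to an RPKM of 2156 to 2961 in every library, with 7 or 8 of them over 1. The 8 adipocyte markers summed to 4.12 to 10.9 at day 0. At day 5 they summed to 831 for shControl cells, 39.1 for shKDM4D, 12.1 for shNFIB and 12.5 for shMLL1 cells. The summed markers of macrophages, endothelial, epithelial and muscle cells and of stellate cells or pericytes reached no more than 1.81 in any library, and *Lrat*, the enzyme that stores retinol in stellate cells, was at 0 in all 8.

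As there was 1 library per condition, a difference of 1 line from shControl cells, or between the days within 1 line, could not be tested and has no p-value. The change from day 0 to day 5 shared by the lines was tested with limma over the 4 lines as pairs, with line as a block, so its p-values measure the spread between lines that carry different shRNAs. In each single comparison a gene is called higher or lower when its RPKM ratio is above 2 or below 0.5 (log2 ratio above 1 or below -1). The exact 95% interval printed with a log2 ratio covers counting error only and not the spread between cultures. The share of all 11513 genes called in the same direction is given beside the count of members. All 6 comparisons of a knockdown line with shControl cells at the same day share the shControl library of that day.

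**Figure D1:**
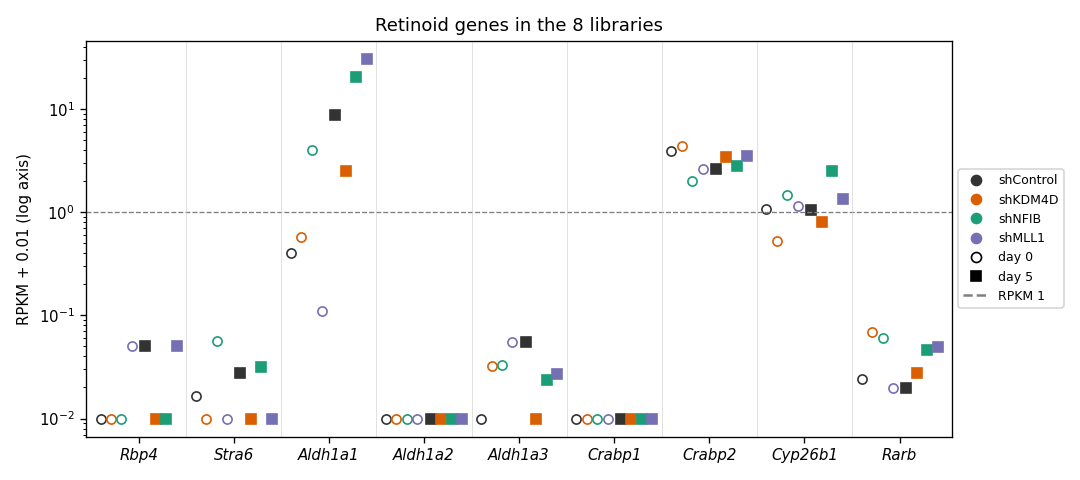
RPKM plus 0.01 of the 9 members on a log axis, with day 0 as open circles on the left and day 5 as filled squares on the right of each column, coloured by line, and a dashed line at an RPKM of 1. *Aldh1a1* spans the widest range, from 0.101 to 30.6, *Crabp2* runs from 1.99 to 4.37 and *Cyp26b1* from 0.516 to 2.46, and the other 6 members lie far below the dashed line.

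The carrier and receptor of circulating retinol were close to the limit of detection. *Rbp4* (ENSMUSG00000024990.13, chromosome 19, 38116629 to 38125281, minus strand) was covered by 5 reads in all 8 libraries together. It had 2 reads in shMLL1 cells at each day, 1 read in shControl cells at day 5 and none in the other 5 libraries. *Stra6* (ENSMUSG00000032327.14, chromosome 9, 58063788 to 58153996, plus strand) had 10 reads in all, of which 5 were in shNFIB cells at day 0, and no library exceeded an RPKM of 0.046. A level equal to 3 reads corresponded to an RPKM of 0.0585 to 0.141 for *Rbp4* and of 0.0135 to 0.0325 for *Stra6*, depending on the depth of the library. Differences in these transcripts between lines or days were not detectable at this depth. *Stra6* overlaps *Ccdc33* on the other strand and *Gm16131* on its own strand.

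Among the members, the ALDH1A enzymes, which make retinoic acid, were represented mainly by *Aldh1a1* (ENSMUSG00000053279.8, chromosome 19, 20492715 to 20643465, plus strand). The similar gene *Aldh1a7*, which is not a member, is described below. The RPKM of *Aldh1a1* rose from day 0 to day 5 in all 4 lines, and its level differed more between the lines than that of the other members that passed the filter. In shControl cells it was 0.388 at day 0 and 8.77 at day 5, covered by 51 and 837 reads. In shKDM4D cells it was 0.560 and 2.49, with 54 and 266 reads. In shNFIB cells it was 3.94 and 20.3, with 363 and 1588 reads. In shMLL1 cells it was 0.101 and 30.6, with 19 and 5768 reads. The shMLL1 line therefore held both the lowest and the highest of the 8 levels, and each line was above its own day 0 level at day 5.

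In order from high to low, the RPKM of *Aldh1a1* was 30.6 for shMLL1 cells at day 5, followed by shNFIB and shControl cells at day 5, shNFIB cells at day 0, and shKDM4D cells at day 5. The remaining day 0 libraries of shKDM4D, shControl and shMLL1 cells came last. Neighbours in this order were separated beyond counting error except shKDM4D and shControl cells at day 0, whose log2 ratio was 0.53 (-0.05 to 1.11).

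From day 0 to day 5 *Aldh1a1* rose 22.6-fold in shControl cells, a log2 ratio of 4.50 (4.09 to 4.94). The rise was 4.45-fold in shKDM4D cells (log2 ratio 2.15, 1.73 to 2.60), 5.15-fold in shNFIB cells (2.36, 2.20 to 2.53) and 304-fold in shMLL1 cells (8.25, 7.60 to 8.98). Compared with shControl cells, the log2 change was lower by 2.34 for shKDM4D cells and by 2.13 for shNFIB cells, and it was greater by 3.75 for shMLL1 cells. The size of these differences depended on the scale. With 1 added to each RPKM the log2 ratios of shControl and shMLL1 cells were 2.81 and 4.85. With the recovered reads of *Aldh1a7* added to those of *Aldh1a1* and scaled to depth, they were 5.69 and 7.39. *Aldh1a1* was the only member past 2-fold in these comparisons, 1 of the 3 that passed the filter in each line. Among all genes, 13% were higher and 8.56% lower at day 5 in shControl cells. The shares were 12.8% and 8.44% for shKDM4D cells, 12.6% and 4.96% for shNFIB cells, and 20.4% and 6.89% for shMLL1 cells. On the log2(RPKM + 0.1) scale, the *Aldh1a1* change ranked 107 of 11513 from the highest in shControl cells, 473 for shKDM4D, 371 for shNFIB and 24 for shMLL1 cells. Over the 4 lines as pairs, the *Aldh1a1* change on that scale was 3.94 (1.61 to 6.27, limma adjusted p = 0.0206, higher in 4 of 4 lines). It did not pass an adjusted p of 0.05 without the shControl pair, where the change was 3.86 (adjusted p = 0.0630). By this test 28.1% of all genes were higher and 20% lower at day 5, and 1 of the 3 members was called. In bulk RNA, a change in the number of cells that express a gene and a change in the RNA per cell cannot be told apart.

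At day 0 the *Aldh1a1* level in shNFIB cells was 10.2-fold that of shControl cells (log2 ratio 3.34, 2.92 to 3.80). In shMLL1 cells it was lower, with a log2 ratio of -1.94 (-2.79 to -1.16). In shKDM4D cells the ratio was 0.53, which did not pass the threshold. At day 5 *Aldh1a1* was lower in shKDM4D cells (-1.81, -2.02 to -1.61) and higher in shNFIB (1.21, 1.09 to 1.33) and shMLL1 cells (1.81, 1.70 to 1.91). Thus the shMLL1 line was below shControl cells at day 0 and above them at day 5, whereas the shNFIB line was above them at both days. The day 5 order of the 4 lines in *Aldh1a1* was not that of the adipocyte markers given above, whose sum was largest in shControl cells, and *Adipoq*, which encodes adiponectin, had an RPKM of 258 for shControl, 9.01 for shKDM4D, 0.229 for shNFIB and 0.570 for shMLL1 cells at day 5.

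**Figure D2:**
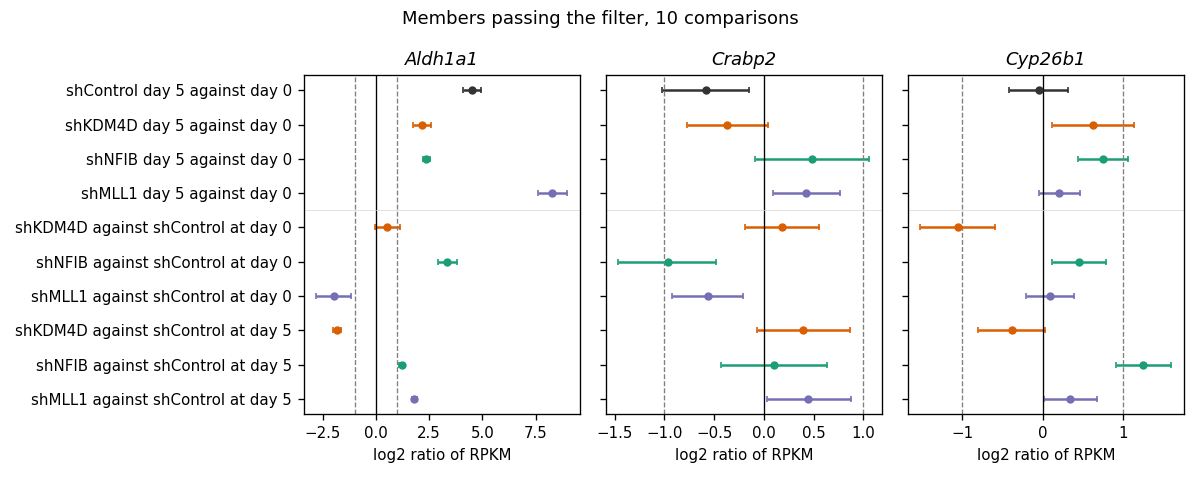
Log2 ratio of RPKM for the 3 members that passed the filter in the 10 comparisons, with exact 95% counting intervals as bars and dashed lines at log2 ratios of -1 and 1 (each panel has its own scale). *Aldh1a1* lies past the dashed lines in 9 comparisons, from -1.94 to 8.25, *Crabp2* in none and *Cyp26b1* in 2.

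*Aldh1a7* (ENSMUSG00000024747.3, chromosome 19, 20692953 to 20727562, minus strand) encodes a cytosolic aldehyde dehydrogenase closely similar to ALDH1A1, and its gene lies 49487 bases from *Aldh1a1*. Reads of such close copies can be split between them by the counting, so the values of both are uncertain to that extent. Of the distinct 50-base stretches of the *Aldh1a7* transcript, 7.49% were also present in an *Aldh1a1* transcript, and the share was 2.51% for 75 bases and 0.0508% for 100 bases. *Aldh1a1* also overlaps *Gm6684* and *C730002L08Rik* on the other strand.

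The RPKM of *Aldh1a7* in shControl cells was 0.291 at day 0 and 42.1 at day 5. The values were 0.248 and 2.93 for shKDM4D cells, 12.6 and 25.9 for shNFIB cells, and 0.811 and 103 for shMLL1 cells. *Aldh1a7* was thus also past 2-fold in all 4 lines, with log2 ratios of 7.18 (6.47 to 7.99), 3.57 (2.64 to 4.66), 1.03 (0.87 to 1.20) and 7.0 (6.64 to 7.37). The ratio in shNFIB cells was close to the threshold. As with *Aldh1a1*, its day 0 level was highest in shNFIB cells, and its day 5 level was highest in shMLL1 and lowest in shKDM4D cells. The genes differed in other respects. At day 0 for shMLL1 cells *Aldh1a7* was higher than in shControl cells (1.48, 0.67 to 2.37) where *Aldh1a1* was lower, and at day 5 in shNFIB cells its ratio was -0.70 (-0.82 to -0.58) where *Aldh1a1* was higher. The ratio of *Aldh1a7* to *Aldh1a1* RPKM ran from 0.442 for shKDM4D cells at day 0 to 8.04 for shMLL1 cells at day 0. The recovered reads of both genes, not their RPKM, were also added together and scaled to depth. The log2 ratio of this sum to shControl cells was -0.21 for shMLL1 cells at day 0 and 0.24 for shNFIB cells at day 5. These *Aldh1a1* calls thus depend on the separation of the copies. Over the 4 lines as pairs the *Aldh1a7* change was 4.43 (1.68 to 7.18, limma adjusted p = 0.0235), with an adjusted p of 0.0696 without the shControl pair, 0.0539 without shKDM4D and 0.0715 without shMLL1.

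**Figure D3:**
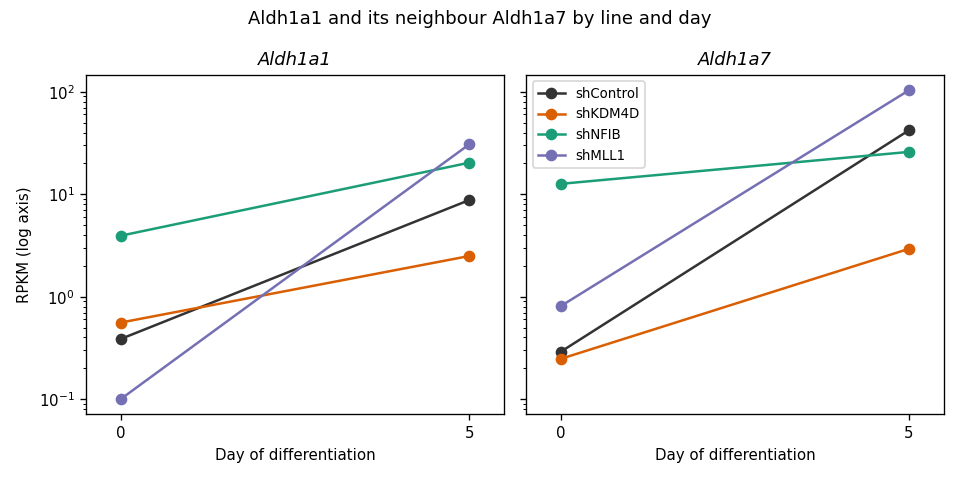
RPKM on a log axis of *Aldh1a1* and *Aldh1a7* at day 0 and day 5, with 1 line per cell line and 1 library per point. Both genes go up in each line, most steeply in shMLL1 and shControl cells, and both start highest in shNFIB cells (3.94 and 12.6) and end lowest in shKDM4D cells (2.49 and 2.93).

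The remaining ALDH1A enzymes were near or at 0. *Aldh1a2* (ENSMUSG00000013584.5, chromosome 9, 71215789 to 71296243, plus strand), the main source of retinoic acid in the early embryo, had no read in any of the 8 libraries, which allows an RPKM of up to 0.0347 in the deepest and 0.0836 in the shallowest library (3 reads). *Aldh1a3* (ENSMUSG00000015134.15, chromosome 7, 66390890 to 66427517, minus strand) had 20 reads in all. Its highest RPKM was 0.0454 for shMLL1 cells at day 0, and 3 libraries held at least 3 reads. In shMLL1 cells at day 0 it had 8 reads against none in shControl cells, at least 1.86-fold with 3 reads as the floor, and the counting intervals of the other 9 comparisons held 0. Among the genes for retinoic acid synthesis, *Aldh1a1* was thus the only member with an RPKM over 1.

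The CRABP proteins bind retinoic acid in the cytoplasm, and CRABP2 is known to deliver it to the receptors. *Crabp1* (ENSMUSG00000032291.8, chromosome 9, 54764748 to 54773110, plus strand) had no read in any library, which allows an RPKM of up to 0.0979 to 0.236. *Crabp2* (ENSMUSG00000004885.5, chromosome 3, 87948666 to 87953376, plus strand) was found in every library. Its RPKM at day 0 was 3.86 for shControl, 4.37 for shKDM4D, 1.99 for shNFIB and 2.61 for shMLL1 cells. At day 5 it was 2.58, 3.39, 2.77 and 3.51 in the same order. In the order of the 8 levels no neighbours were separated beyond counting error. Libraries further apart in that order were. Compared directly at day 0, shKDM4D cells were past 2-fold above shNFIB cells (log2 ratio 1.14, 0.64 to 1.65), and their ratio to shMLL1 cells was 0.74 (0.37 to 1.12).

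*Crabp2* did not pass 2-fold in any of the 10 comparisons across days or with shControl cells. Its log2 ratio of day 5 to day 0 was -0.58 (-1.03 to -0.15) for shControl cells and -0.37 (-0.77 to 0.04) for shKDM4D cells. For shNFIB and shMLL1 cells the ratio was 0.48 (-0.09 to 1.06) and 0.43 (0.09 to 0.76). The ratio nearest to the threshold was that of shNFIB to shControl cells at day 0, at -0.96 (-1.46 to -0.48). With *Gapdh* as the reference the day 5 to day 0 ratio changed sign in shKDM4D (0.10) and shNFIB cells (-0.09). Over the 4 lines the change was -0.01 (-0.56 to 0.53, limma adjusted p = 0.968), and 2 of 4 lines were higher at day 5. At day 5 the ratios of the knockdown lines to shControl cells were between 0.10 and 0.44.

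CYP26B1 breaks retinoic acid down. *Cyp26b1* (ENSMUSG00000063415.12, chromosome 6, 84571414 to 84593908, minus strand) had an RPKM at day 0 of 1.07 for shControl, 0.516 for shKDM4D, 1.46 for shNFIB and 1.13 for shMLL1 cells. At day 5 the RPKM was 1.03, 0.795, 2.46 and 1.31 in the same order. The shNFIB line was above the other lines at both days, and the shKDM4D line was below them at both days. In the order of the 8 levels, shNFIB cells at day 5 stood above the next library, shNFIB cells at day 0, by a log2 ratio of 0.75 (0.44 to 1.07). At the low end, shKDM4D cells at day 5 stood above those at day 0 by 0.62 (0.12 to 1.14), and no other neighbours were separated beyond counting error.

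Within a line, *Cyp26b1* did not pass 2-fold from day 0 to day 5, with log2 ratios of -0.04 (-0.41 to 0.32) for shControl cells, 0.62 for shKDM4D, 0.75 for shNFIB and 0.21 (-0.05 to 0.47) for shMLL1 cells. Over the 4 lines its change was 0.35 (-0.03 to 0.74, limma adjusted p = 0.110), with 3 of 4 lines higher at day 5. Compared with shControl cells, it was lower in shKDM4D cells at day 0 (-1.05, -1.52 to -0.59). This call is at the threshold, and the ratio was -0.92 with 0.1 added to each RPKM and -0.80 after quantile normalization. At day 5 *Cyp26b1* was higher in shNFIB cells (1.25, 0.91 to 1.60), although with 1 added to each RPKM the ratio was 0.77 and did not pass. Its day 5 ratios were -0.38 (-0.80 to 0.04) for shKDM4D and 0.34 (0.02 to 0.68) for shMLL1 cells. Compared directly at day 5, shNFIB cells were above shKDM4D cells by 1.63 (interval of the shKDM4D to shNFIB ratio -2.00 to -1.27) and above shMLL1 cells by 0.91 (0.64 to 1.17).

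At day 0, the members past 2-fold against shControl cells were thus *Cyp26b1* (lower) in shKDM4D cells, *Aldh1a1* (higher) in shNFIB cells and *Aldh1a1* (lower) in shMLL1 cells, 1 of 3 in each line. Among all genes at day 0, 1.98% were higher and 4.26% lower in shKDM4D cells, 2.95% and 6.05% for shNFIB cells, and 1.67% and 7.43% for shMLL1 cells. At day 5 they were *Aldh1a1* (lower) in shKDM4D cells, *Aldh1a1* and *Cyp26b1* (both higher) in shNFIB cells, and *Aldh1a1* (higher) in shMLL1 cells. Among all genes at day 5, 1.88% were higher and 4.57% lower in shKDM4D cells, 5.54% and 5.67% for shNFIB cells, and 5.25% and 4.02% for shMLL1 cells. With 3 members passing the filter, these counts describe single genes and not the pathway.

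*Rarb* (ENSMUSG00000017491.9, chromosome 14, 16430839 to 16819156, minus strand) encodes RARβ, and its promoter holds the DR5 match printed above. It had 29 reads in the 8 libraries together. The reads at day 0 were 2 for shControl, 6 for shKDM4D, 5 for shNFIB and 2 for shMLL1 cells, whereas day 5 gave 1, 2, 3 and 8 reads in that order. The highest RPKM was 0.0583, in shKDM4D cells at day 0, so *Rarb* was near the limit of detection at both days, and no difference is drawn from it. *Rarb* overlaps *Top2b* and *Gm48162* on the other strand.

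The RARs were instead represented by *Rara* and *Rarg*, which were named after their values were seen. *Rara*, encoding RARα, had an RPKM between 15.3 and 21.1 at day 0 and between 22.5 and 27.2 at day 5. *Rarg*, encoding RARγ, had an RPKM between 46.7 and 71.2 at day 0 and between 35.0 and 54.2 at day 5. Neither passed 2-fold in any comparison. Because RPKM is a level per kilobase of exon, these genes can be set beside *Rarb*, whose level was below 0.06 in each library.

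The other genes of the pathway were taken from lists of 45 genes, of which 23 passed the filter and 7 were at 0 in all libraries. From day 0 to day 5, 9 of the 23 were higher and 1 was lower in shControl cells, 6 and 3 for shKDM4D cells, 5 and 2 for shNFIB cells, and 7 and 2 for shMLL1 cells. The median log2(RPKM + 0.1) ratio of the 23 genes was 0.39 for shControl cells beside 0.03 over all genes, 0.24 beside 0.03 for shKDM4D, 0.29 beside 0.09 for shNFIB and 0.42 beside 0.17 for shMLL1 cells. For comparison, the shares over all genes given above were 13% and 8.56%, 12.8% and 8.44%, 12.6% and 4.96%, and 20.4% and 6.89% in the same order. Over the 4 lines as pairs, 10 of the 23 were higher and 3 lower by limma, beside 28.1% higher and 20% lower over all genes. These lists share no gene with the 9 members. A few of the calls rest on very few reads. The counting interval held 0 for 1 higher gene in shControl and in shKDM4D cells and for 1 lower gene in shNFIB cells.

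The alcohol and short-chain dehydrogenases interconvert retinol and retinaldehyde, and 12 of the 20 listed passed the filter. From day 0 to day 5, 4 of the 12 were higher and 1 lower in shControl and in shNFIB cells. In shKDM4D cells 4 were higher and 2 lower, and in shMLL1 cells 5 were higher and 1 lower. Among all genes, 13%, 12.8%, 12.6% and 20.4% were higher and 8.56%, 8.44%, 4.96% and 6.89% lower, in the order shControl, shKDM4D, shNFIB and shMLL1. *Adh1*, which oxidises retinol among other alcohols, had an RPKM of 0.303, 0.779, 0.192 and 0.0352 at day 0, in the order shControl, shKDM4D, shNFIB and shMLL1. At day 5 it had risen to 11.6, 24.4, 6.39 and 5.37 in the same order, and the log2 ratios were between 4.97 and 7.25. *Adh7*, another alcohol dehydrogenase of the list, was named after its values were seen. Its RPKM was between 19.9 and 60.8 over all libraries. From day 0 to day 5 it passed 2-fold in shMLL1 cells only, with a log2 ratio of 1.02. *Dhrs3*, which reduces retinaldehyde back to retinol and is known to be induced by retinoic acid, rose in all 4 lines. Its RPKM went from 2.40 to 6.03 for shControl, 3.69 to 7.60 for shKDM4D, 1.37 to 7.42 for shNFIB and 0.501 to 18.2 for shMLL1 cells. As for *Aldh1a1*, the shMLL1 line held the lowest *Dhrs3* level at day 0 (log2 ratio to shControl cells -2.26, -2.72 to -1.82) and the highest at day 5 (1.59, 1.43 to 1.76).

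*Rdh10*, which oxidises retinol to retinaldehyde, fell in all 4 lines. Its RPKM was 4.67 and 0.871 for shControl cells at day 0 and day 5, 8.53 and 1.62 for shKDM4D, 4.98 and 1.74 for shNFIB, and 6.76 and 2.08 for shMLL1 cells. The log2 ratios were between -2.42 and -1.51. *Rdh5*, a retinol dehydrogenase best known from the eye, rose in all 4 lines, with log2 ratios of 1.52, 1.30, 1.91 and 2.17 and a highest RPKM of 2.22. *Dhrs9*, another retinol dehydrogenase, did not move the same way in the lines, with log2 ratios of -0.50 for shControl, -1.46 for shKDM4D, 1.79 for shNFIB and 0.71 for shMLL1 cells.

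**Figure D4:**
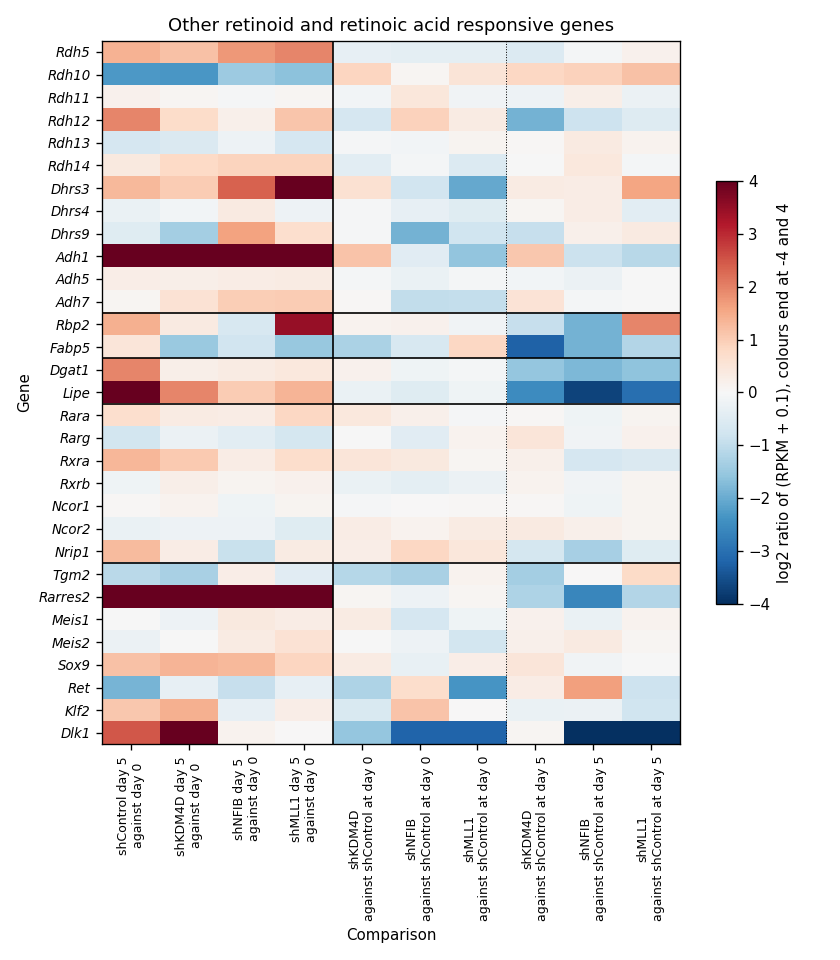
Log2 ratio of (RPKM + 0.1) for the 31 listed genes that passed the filter (rows, separated by black lines into dehydrogenases, carriers, ester enzymes, receptors with corepressors, and genes known to respond to retinoic acid) in the 10 comparisons (columns), with red for higher and blue for lower and colours ending at -4 and 4. *Adh1*, *Dhrs3* and *Rarres2* are red and *Rdh10* is blue in all 4 columns of day 5 against day 0, and *Lipe* and *Dgat1* are blue in all 3 columns of knockdown lines against shControl cells at day 5.

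Among 8 further genes for carriers and uptake, 2 passed the filter. *Fabp5*, which encodes a fatty acid carrier that also binds retinoic acid, had an RPKM of 25 at day 0 and 35 at day 5 in shControl cells. The day 5 level was 3.63 for shKDM4D, 9.38 for shNFIB and 15.5 for shMLL1 cells. *Fabp5* was thus lower than in shControl cells in all 3 lines, with log2 ratios of -3.27 (-3.45 to -3.09), -1.90 (-2.04 to -1.77) and -1.18 (-1.27 to -1.10). *Rbp2*, a retinol carrier known from the intestine, was covered by 49 reads in shMLL1 cells at day 5 (RPKM 1.34) and by at most 5 reads in each other library. Its ratio to shControl cells there was 2.31 (0.99 to 4.0).

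The genes of retinyl esters and carotenoids numbered 6, and the 2 that passed the filter are also genes of triglyceride metabolism. *Lipe*, which encodes hormone-sensitive lipase, an enzyme that can hydrolyse retinyl esters, rose from 0.733 to 15.4 for shControl cells. It also rose in the knockdown lines, to 2.59 for shKDM4D, 1.10 for shNFIB and 1.81 for shMLL1 cells, where the day 5 ratios to shControl cells were -2.57, -3.80 and -3.09. *Dgat1*, which makes triglycerides and can esterify retinol, rose past 2-fold for shControl cells only, from 1.70 to 6.86. Its log2 ratios in the other lines were between 0.25 and 0.44. *Dgat1* was lower than in shControl cells at day 5 in all 3 lines, at -1.58, -1.85 and -1.65. The adipocyte markers had their largest sum in the same library (831), and their part in these values was not tested. None of the other 3 genes of retinoic acid breakdown passed the filter.

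Of the 8 other receptors and corepressors, 7 passed the filter. *Rxra*, which encodes the partner RXRα, rose in shControl (9.35 to 23.8) and shKDM4D cells (13.1 to 27.4). Its log2 ratio was 0.30 for shNFIB and 0.70 for shMLL1 cells, which did not pass the threshold. *Nrip1*, which encodes the corepressor RIP140, rose in shControl cells from 2.37 to 5.81 (1.29, 1.16 to 1.43). In shNFIB cells *Nrip1* was 4.25 at day 0 and 2.24 at day 5 (-0.92, -1.10 to -0.75), and it was lower than in shControl cells at day 5 (-1.38, -1.54 to -1.22).

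Against shControl cells at day 0, 1 of the 23 pathway genes was higher and 2 lower in shKDM4D cells, 1 and 1 for shNFIB cells, and 0 and 2 for shMLL1 cells. The medians of the list were -0.04, -0.17 and -0.08, beside -0.0012, 0.03 and -0.07 over all genes. At day 5, 1 was higher and 6 lower in shKDM4D cells, 1 and 5 for shNFIB cells, and 3 and 4 for shMLL1 cells, and the medians were 0.06, -0.15 and -0.01, beside 0.01, 0.09 and 0.07. The shares of higher and lower genes over all genes were 1.98% and 4.26%, 2.95% and 6.05%, and 1.67% and 7.43% at day 0, and 1.88% and 4.57%, 5.54% and 5.67%, and 5.25% and 4.02% at day 5. The interval held 0 for 1 of the lower genes in shKDM4D cells at each day and in shNFIB cells at day 5, where it was *Rbp2* (0 reads against 5). The lower genes at day 5 included *Fabp5*, *Dgat1* and *Lipe* in each line. *Rdh10* was at the threshold in shNFIB cells (1.00, 0.56 to 1.45) and higher in shMLL1 cells (1.26, 0.88 to 1.65).

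Genes known to respond to retinoic acid were listed separately, and 8 of 12 passed the filter. From day 0 to day 5, 4 were higher and 2 lower in shControl cells, 4 and 1 for shKDM4D, 3 and 1 for shNFIB, and 1 and 1 for shMLL1 cells. The median log2 ratio was 0.53, 0.66, 0.30 and 0.28 in that order, beside 0.03, 0.03, 0.09 and 0.17 over all genes, of which 13%, 12.8%, 12.6% and 20.4% were higher and 8.56%, 8.44%, 4.96% and 6.89% lower. The interval held 0 for 1 higher gene in shNFIB cells (*Dlk1*, with 1 read against none) and for the lower gene in shMLL1 cells. Over the 4 lines as pairs, 2 of the 8 (*Rarres2* and *Sox9*) were higher and 0 lower by limma, beside 28.1% higher and 20% lower over all genes. *Rarres2*, which encodes the adipokine chemerin and is named for its response to a retinoid, was covered by at most 2 reads in each library at day 0. At day 5 its RPKM was 18.2 for shControl, 7.72 for shKDM4D, 2.92 for shNFIB and 8.04 for shMLL1 cells. In shNFIB cells it had no read at day 0 and was at least 48.3-fold higher at day 5, taking 3 reads as the floor.

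*Sox9*, a transcription factor of cartilage, rose from 59.3 to 133 for shControl, 73.8 to 188 for shKDM4D and 48.4 to 120 for shNFIB cells, and its log2 ratio in shMLL1 cells was 0.87 (0.84 to 0.90). *Klf2*, a transcription factor known to inhibit adipogenesis, rose in shControl (7.22 to 15.2) and shKDM4D cells (4.68 to 12.6), and its ratio was -0.32 for shNFIB and 0.27 for shMLL1 cells. *Tgm2*, which encodes a transglutaminase induced by retinoic acid in many cells, fell in shControl (-1.13, -1.41 to -0.85) and shKDM4D cells (-1.44, -1.92 to -0.98). Its ratio was 0.27 for shNFIB and -0.47 for shMLL1 cells, which did not pass the threshold. *Dlk1*, a marker of preadipocytes, rose from 0.823 to 5.09 for shControl and from 0.217 to 5.33 for shKDM4D cells. It had no read in shMLL1 cells at either day and 1 read in shNFIB cells at day 5. At day 5 the *Dlk1* level in shMLL1 cells was at least 366-fold lower than in shControl cells.

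Against shControl cells at day 0, none of the 8 genes was higher and 3 were lower in shKDM4D cells, 1 and 3 for shNFIB, and 0 and 2 for shMLL1 cells. Of the lower calls in shNFIB cells, 1 was *Rarres2* with 0 reads against 1. At day 5 the counts were 0 and 2, 1 and 2, and 0 and 3. In the same order, 1.98%, 2.95% and 1.67% of all genes were higher and 4.26%, 6.05% and 7.43% lower at day 0, and 1.88%, 5.54% and 5.25% higher and 4.57%, 5.67% and 4.02% lower at day 5. The median log2 ratio of the list at day 0 was -0.32 for shKDM4D, -0.26 for shNFIB and -0.09 for shMLL1 cells. Over all genes it was -0.0012, 0.03 and -0.07. At day 5 the list medians were 0.11, -0.19 and -0.41 in the same order, beside 0.01, 0.09 and 0.07 over all genes. The shMLL1 median at day 5 moved towards 0 with other filters and with 1 added to each RPKM, as given below. *Rarres2* was lower than in shControl cells at day 5 in all 3 lines, with log2 ratios of -1.24 (-1.40 to -1.07), -2.64 (-2.92 to -2.36) and -1.18 (-1.31 to -1.04).

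The genes whose pattern was most like that of a member were taken by Pearson correlation of log2(RPKM + 0.1) over the 8 libraries, which the points share with their depth, among genes that reached an RPKM of 5. For *Aldh1a1* these were *Rpap2* (r = 0.979) and *Eapp* (r = 0.977), of 7934 genes. Their ranges were far narrower than that of *Aldh1a1*, from 3.50 to 5.63 for *Rpap2* and from 13.3 to 21.2 for *Eapp*. *Aldh1a7* ranked 59 in this order (r = 0.930). For *Crabp2* they were *Eprs* (r = 0.954) and *Ascc2* (r = 0.950), and for *Cyp26b1* they were *Tmx3* (r = 0.965) and *Fcf1* (r = 0.962). With 8 libraries of 4 lines, these values describe how alike the patterns were and not the size of the changes.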

How the data were processed

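Total RNA of each line and day was sequenced once. The deposited values are RPKM, which the authors obtained after mapping reads to GRCm38 (mm10) and counting per gene. The study's methods mention quantile normalization, which is not visible in the deposited values, since they are whole multiples of what 1 read is worth. Depth and reads were recovered from these steps with GENCODE M21 exon lengths, and 96.2 to 96.6% of values came out within 0.02 of a whole read. Whether counting used strand is not given in the sources used here. Genes that exceeded an RPKM of 1 in 1 or more of the 8 libraries were called past 2-fold without a pseudocount, since a single comparison holds 1 library per group. The change from day 0 to day 5 over the 4 lines was tested with limma 3.58.1 (R 4.3.3) on log2(RPKM + 0.1) of the same genes, with line as a block, a test added after seeing the data. List medians used log2(RPKM + 0.1). Exact 95% intervals (Clopper-Pearson, conditional on the sum) cover counting error only, and a fold against 0 reads is a bound with a floor of 3 reads. The code was tested on simulated data and run with Python 3.11.15, numpy 2.4.6, pandas 2.3.3, scipy 1.17.1 and matplotlib 3.10.9. The members and lists were chosen with earlier results of these data known. Up to 5 genes per list were named by the largest absolute log2(RPKM + 1) ratio among those past 2-fold with an RPKM of at least 1, and 2 genes per expressed member by likeness. Exceptions are said in the text. Alternatives were other filters, pseudocounts and scalings.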

Additional observations from a re-analysis of the deposited data

Results flagged for a closer look

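In 6 cases a knockdown line and shControl cells moved in opposite directions from day 0 to day 5, with counting intervals that excluded 0 on both sides and, for the listed pathway genes, at least 1 of both changes past 2-fold. In 5 further cases among the listed genes both changes were within 2-fold. With 1 library per condition the difference was not tested against the spread between cultures. *Crabp2* had a log2 ratio of 0.43 (0.09 to 0.76) in shMLL1 cells and of -0.58 (-1.03 to -0.15) in shControl cells. Under the alternatives run, the *Crabp2* ratio ran from 0.05 to 0.43 in shMLL1 cells and from -0.68 to -0.44 in shControl cells. The rise in shMLL1 cells thus depended on the scaling, and the median over all genes in that comparison was 0.17. *Dhrs9* had a ratio of 1.79 (1.27 to 2.33) in shNFIB cells and -0.50 (-0.82 to -0.19) in shControl cells. *Fabp5* had a ratio of -1.50 (-1.71 to -1.30) in shKDM4D cells and -1.53 (-1.60 to -1.45) in shMLL1 cells, against 0.49 (0.41 to 0.57) in shControl cells. *Nrip1* had a ratio of -0.92 (-1.10 to -0.75) in shNFIB cells and 1.29 (1.16 to 1.43) in shControl cells. *Klf2* had a ratio of -0.32 (-0.51 to -0.12) in shNFIB cells and 1.08 (0.88 to 1.28) in shControl cells. The comparisons share the shControl libraries.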

How the results depend on the processing

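No ratio past 2-fold changed its direction under the alternatives run. Ratios within 2-fold changed sign in 3 comparisons of *Crabp2* and 3 of *Cyp26b1*, between -0.51 and 0.48. Of the 3 members that passed the filter, 151 of 160 alternative values kept their side of the 2-fold threshold. With no filter on RPKM, the members past 2-fold were 4, 3, 2 and 3 for day 5 against day 0 in shControl, shKDM4D, shNFIB and shMLL1 cells, 4 in each line against shControl cells at day 0, and 4, 5 and 4 at day 5, since members with a few reads entered. With *Gapdh* as the reference, *Cyp26b1* passed too in shKDM4D cells from day 0 to day 5 and in shNFIB cells at day 0, which made 2 members each. In shKDM4D cells at day 0 the count was 0 with 0.1 or 1 added to each RPKM and after quantile normalization. With 1 added it was 0 in shMLL1 cells at day 0 (*Aldh1a1* lost) and 1 in shNFIB cells at day 5 (*Cyp26b1* lost). With the recovered reads of *Aldh1a1* and *Aldh1a7* added together, chosen after seeing the data, it was also 0 and 1 there (*Aldh1a1* lost in both). The *Kdm4d* ratio at day 5 was -0.21 with 1 added, also chosen after seeing the data. The pathway median was 0.0758 with no filter in shControl cells from day 0 to day 5, and 0.0117 in shNFIB and 0.107 in shMLL1 cells after quantile normalization. For genes known to respond to retinoic acid, an RPKM over 2 gave medians of 1.07 in shControl and 1.34 in shKDM4D cells from day 0 to day 5, -0.0230 in shKDM4D cells at day 0 and -0.0180 in shMLL1 cells at day 5. With no filter these were 0.0128, -0.00783, -0.0115 and -0.00899, and with 1 added the last was -0.0667. Median-of-ratios scaling moved the median of all genes by -0.20 in shMLL1 cells from day 0 to day 5, quantile normalization by -0.26 there and -0.13 in shNFIB cells, and *Gapdh* by up to 0.63. No replicate of a condition could be left out. Within a line no paired fit could be made, as each condition holds 1 library. With the lines as pairs (line as a replicate block, chosen after seeing the data), limma called 5535 genes for the day change. Without the block it called 4274. As each line holds 1 library per day, the block cannot alter the size of a change, and that of *Aldh1a1* was 3.94 in both. Leaving out 1 line at a time gave 2.83 to 4.59 for *Aldh1a1* and 3.64 to 5.57 for *Aldh1a7*. Depth limits *Rbp4*, *Stra6*, *Aldh1a3*, *Rarb* and *Kdm4d*, which had few reads in each library.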
